A study of Mus musculus with 3 samples.

Results

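Conventional dendritic cells of type 2 (type 2 DC) are the antigen-presenting cells of the airspace that carry the CD209 and MGL lectins, and 561 of them were found among 42888 lavage cells. They were chosen by their counts in 3 single-cell libraries. A cell had to hold at least 200 genes, at most 20% mitochondrial UMIs and under 0.5% of its UMIs from Lyz2, the lysozyme gene of macrophages. It had to hold at least 2 UMIs summed over 4 lectin genes, Cd209a, Mgl2, Clec10a and Cd209d. It could hold at most 1 UMI over Ccr7, Fscn1 and Ccl22, which mark migratory dendritic cells, at most 1 over Xcr1, Clnk and Tlr3, which mark type 1 dendritic cells, and 0 over the lymphocyte genes Cd3d, Cd3e, Cd3g and Cd79a. A UMI is a molecular tag that counts 1 captured transcript. The levels of these gate genes, and of every gene that goes with them, were therefore used to choose the cells, and their contrast with other cells is a description only.

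The cells came from mouse bronchoalveolar lavage taken 14 days after bleomycin had been instilled into the airways, a standard way to injure the lung and bring about fibrosis. All 3 groups received bleomycin. WT_DMSO were wild-type (WT) mice whose label names DMSO, a solvent used as vehicle. WT_GW5074 were WT mice given GW5074, a small-molecule kinase inhibitor. KO_DMSO were mice lacking Clec7a, which encodes Dectin-1, a receptor for fungal β-glucan, and their label names DMSO too. Sex, age, strain, dose and the number of mice are not given in the sources used here, and neither is the way the knockout was made. Lavage fluid was pooled within a group, and cells bearing CD11b or CD11c were sorted from it, so each group is 1 library with no replicate. Nothing could be tested between groups, and a difference between groups cannot be told apart from one between pools, sorts or runs. The 2 contrasts, WT_GW5074 over WT_DMSO and KO_DMSO over WT_DMSO, share the WT_DMSO library.

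Type 2 DC take up antigen in tissue and present it on MHC class II to CD4 T cells, and they are known for priming type 2 and type 17 helper responses in the lung. Their development depends on FLT3 ligand and on transcription factors such as IRF4 and KLF4, while type 1 dendritic cells depend on IRF8 and BATF3. Dectin-1 is a C-type lectin of myeloid cells that signals through the kinases SYK and PKCδ to CARD9, BCL10 and MALT1.

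The libraries held 39180331, 45462817 and 34859676 UMIs over 13504, 17809 and 11678 barcodes (WT_DMSO, WT_GW5074 and KO_DMSO, the order of values throughout). Between 80 and 154 barcodes were found in both libraries of a pair, and 5, 3 and 4 type 2 DC had such a barcode. Neutrophils made up 25.8% of the kept cells in WT_DMSO, and 199 and 225 cells were neutrophils in the other libraries. T cells, which do not make the neutrophil gene S100a8, read 1920, 426 and 186 CPM of it. CPM is a gene's UMIs per 1000000 UMIs of the cells summed. Values of T cells are given below beside genes of neutrophils and macrophages, because free RNA in the droplets can reach every cell of a library. Those values come from 189, 94 and 133 cells, where 3 counts would be 9.32, 31.1 and 17.4 CPM. The T cells were chosen by Cd3d, Cd3e and Cd3g and had to pass the same Lyz2 limit as the type 2 DC. Beside other genes, such as B2m and Gpr183, they are levels only, since T cells may make those transcripts themselves.

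In WT_DMSO 207 type 2 DC were 1.54% of kept cells (exact Clopper-Pearson 95% interval 1.34 to 1.76), in WT_GW5074 198 were 1.11% (0.964 to 1.28) and in KO_DMSO 156 were 1.34% (1.14 to 1.57). The log2 ratio of shares was -0.47 for GW5074 (interval -0.76 to -0.18, for counting error only), a 1.38-fold lower share, and -0.20 for the knockout (-0.51 to 0.11). Neither reached the 1.5-fold size used here. Without neutrophils in the denominator the ratios were -0.88 and -0.60, and without a group of 83 cells described below they were 0.14 and 0.42, so the direction rests on which cells are counted. The cells held a median of 3066, 1647 and 2780 UMIs and 1534, 975 and 1350 genes. Just inside the gate, 66, 82 and 44 members held exactly 2 lectin UMIs, and just outside it 120, 151 and 81 cells held 1. In the Lyz2 limit, 3, 13 and 0 members lay between 0.4% and 0.5%, and 4, 8 and 1 cells lay between 0.5% and 0.6%.

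The lectin genes themselves differed in level. Mgl2 (chr11:70130329-70137550, mm10), which encodes a galactose-type lectin, read 816, 1048 and 990 CPM. Clec10a, its neighbour at chr11:70156197-70170834, read 284, 184 and 117 CPM and was highest in WT_DMSO. Cd209a (chr8:3743397-3748984), the closest mouse relative of DC-SIGN, read 221, 467 and 514 CPM and was lowest there. Cd209d read 19.6, 18.4 and 13.5 CPM. The last 300 bases of Mgl2 and Clec10a transcripts were at most 58.1% identical and those of Cd209a and Cd209d at most 63.9%.

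Markers that the gate did not use were those of dendritic cells. The dendritic factor Zbtb46 read 66.5, 86.7 and 94.3 CPM in type 2 DC against 6.16 to 8.79 CPM in macrophages, and the cytokine receptor gene Flt3 read 225, 213 and 153 CPM against 15.2 to 26.7 CPM. Sirpa, the surface receptor by which type 2 are told from type 1 cells, read 305, 376 and 207 CPM against 27.7 to 43.7 CPM in type 1 DC. Irf4 read 63.5, 86.7 and 33.7 CPM against 1.63 to 6.003 CPM in type 1 DC. Kmo, an enzyme of tryptophan breakdown, read 284, 376 and 272 CPM against 7.95 to 11.6 CPM in migratory dendritic cells. Cdh1, the gene of E-cadherin, read 237, 302 and 227 CPM and at most 25.7 CPM in both other dendritic gates. Of the 24 markers listed for type 2 DC, 23 were detected, by any UMI over all members, and Clec4a4 was at 0. The 23 include the lectin genes Cd209a, Mgl2, Clec10a and Cd209d, by which the cells were chosen. Of 16 T cell, NK cell and innate lymphoid markers 10 were at 0, of 10 B cell markers 8, of 11 mast cell and basophil markers 9 and of 7 eosinophil markers 6. Counted among these are Cd3d, Cd3e, Cd3g and Cd79a, whose zeros were set by the gate. Macrophage markers were present too, with 1891, 2957 and 2393 CPM summed over 25 genes. Of these, C1qa read 83.1, 200 and 290 CPM against 650 to 698 CPM in macrophages.

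**Figure D1:**
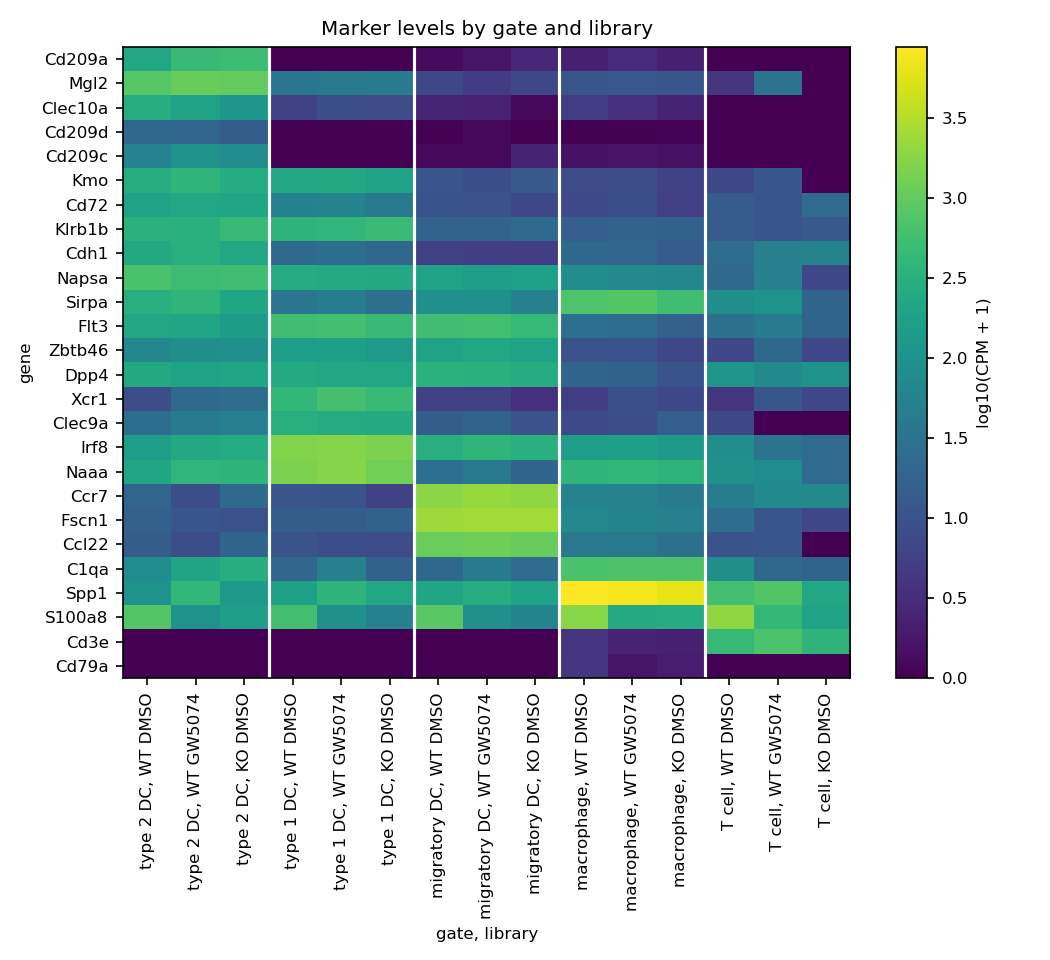
Levels of marker genes as log10(CPM + 1) in type 2 DC and in cells of 4 other gates, 1 column per library. Cd209a, at 221 to 514 CPM in type 2 DC, was at 0 in type 1 DC and T cells, while Ccr7, Fscn1 and Ccl22 filled the columns of migratory cells.

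Other genes stood far above a neighbouring dendritic gate in all 3 libraries, and 4 are described. Arhgap24, a GTPase-activating protein, read 480, 612 and 667 CPM against 25.3 to 40.9 CPM in type 1 and migratory DC. Cfp, the gene of the complement factor properdin, read 384, 365 and 265 CPM against 7.66 to 40.0 CPM. Creb5, a transcription factor gene, read 564, 546 and 519 CPM against 14.6 to 29.4 CPM in type 1 DC. Ctnnd2, a catenin gene, read 376, 431 and 516 CPM against 3.57 to 6.50 CPM in migratory cells. None of these 4 genes was past 1.5-fold in either contrast over all members.

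The 561 cells were not uniform. Clustering of their 1500 most variable genes gave 8 sub-clusters, each described here by its leading genes. The largest, sub-cluster 1 with 120 cells, was led by Ltb, a membrane-bound cytokine of the lymphotoxin pathway, H2-DMb2 and H2-Oa, which adjust peptide loading on MHC class II, and by Cd209a, Kmo and Cd72. Sub-cluster 5 with 86 cells shared Ltb (274 CPM) and Kmo (490 CPM) and added Ccr6, the receptor of CCL20, at 153 CPM and the chemokine gene Ccl5 at 163 CPM. Sub-cluster 7 with 63 cells was led by Ccl17, a ligand of CCR4, at 5469 CPM against 1057 to 3201 CPM in the 7 others, with Tgfbr1 at 763 CPM, Mrc1 at 639 CPM and Cd209c at 176 CPM. Sub-cluster 8 with 22 cells carried genes of cell division, Top2a at 810 CPM and Mki67 at 594 CPM.

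Sub-cluster 3 with 72 cells had the highest Cd209a level (953 CPM) and the highest of Cd209d (144 CPM against at most 6.24 CPM elsewhere). It was led by Ly6c2 (326 CPM), Plac8 (411 CPM) and Siglech (150 CPM), and by Isg15 (170 CPM), Ifi209 (209 CPM) and Slfn5 (392 CPM) of the interferon-induced genes. Ly6c2 and Plac8 are known from monocytes, and Siglech from plasmacytoid cells and dendritic precursors. Sirpa (320 CPM) and Zbtb46 (84.8 CPM) were at the level of sub-cluster 1, where they read 320 and 93.0 CPM.

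Leading genes of type 1 DC or of macrophages went against the label in 2 sub-clusters. Sub-cluster 2 with 55 cells was led by type 1 DC genes: Xcr1 (127 CPM), Clec9a (248 CPM), Irf8 (1291 CPM), Cadm1 (564 CPM) and Rab7b (380 CPM), while Sirpa read 42.2 CPM and Irf4 5.27 CPM. Of the gate genes, Mgl2 read 675 CPM in it and Cd209a 47.4 CPM. Kmo and Ctnnd2, which were set above against migratory cells only, read 242 and 358 CPM in sub-cluster 2. Sub-cluster 4 with 60 cells was led by Retnla and the 3 C1q genes (C1qa 1098 CPM, C1qb 1279 CPM), all known from macrophages, with Ccr2 at 1048 CPM, Fn1 at 593 CPM, Flt3 at 49.9 CPM and Zbtb46 at 24.96 CPM. Sub-cluster 2 made up 6.76%, 9.09% and 14.7% of the members of the 3 libraries, and sub-cluster 4 4.83%, 14.6% and 13.5%, lowest in WT_DMSO in both cases.

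Sub-cluster 6 with 83 cells lay almost wholly in WT_DMSO, with 75 of its cells there (36.2% of that library's members) against 5 in WT_GW5074 (2.53%) and 3 in KO_DMSO (1.92%). It was led by Entpd3, Ramp3, Prnp, Glis3, S100a8 and S100a9. Ramp3, an accessory protein of calcitonin-type receptors, and Prnp, the prion protein gene, both read 285 CPM there against at most 140 CPM in any other sub-cluster. Mt1, a metallothionein, read 1411 CPM, Il1r2, the decoy receptor of interleukin 1, 1073 CPM, Ifitm1 2274 CPM and Fkbp5, a co-chaperone gene induced by glucocorticoids, 299 CPM. Clec10a (371 CPM) and Cd86 (645 CPM) were high in it, Cd209a (107 CPM), Irf4 (21.4 CPM) and Zbtb46 (28.5 CPM) low, and Ccr7 and Fscn1 read 28.5 and 14.3 CPM. The low Irf4 and Zbtb46 go against the label in these cells too, while the high Clec10a goes with it. Because the gate capped Ccr7 and Fscn1, their levels cannot tell these cells from migratory dendritic cells. A cluster found mostly in 1 library may be that library and not a cell state. At clustering resolutions of 0.5 and 1.2 its cells stayed in 1 cluster of 88 and 87 cells, of which 80 and 78 were WT_DMSO. Both contrasts include these cells, and where calls given below were lost without them the ratios or counts without them are given too.

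**Figure D2:**
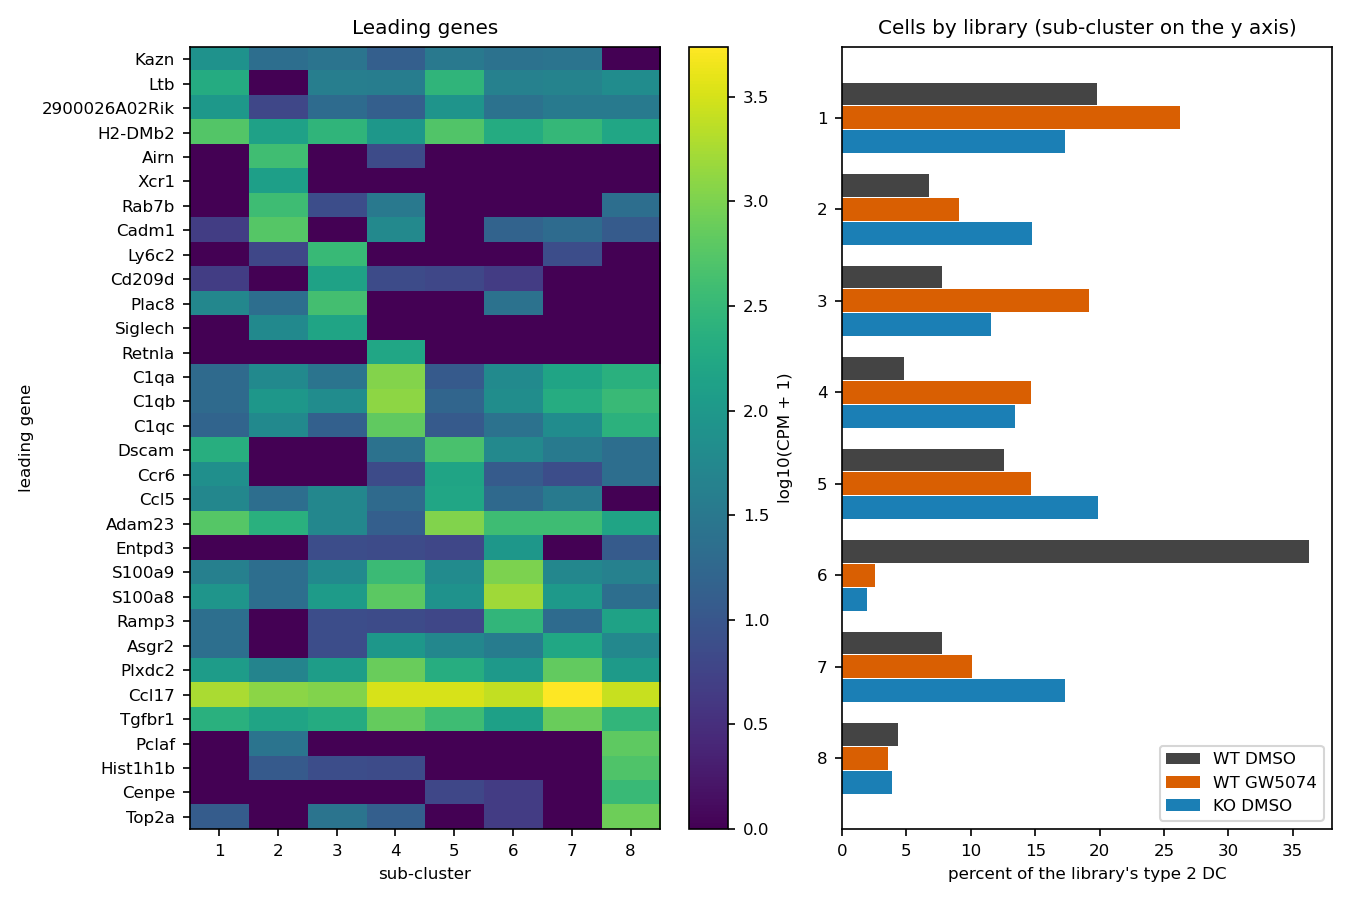
Left, levels of the leading genes of the 8 sub-clusters as log10(CPM + 1). Right, the percent of each library's type 2 DC in each sub-cluster, with sub-cluster 6 at 36.2% in WT_DMSO and at 2.53% and 1.92% in the other libraries.

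For the contrasts, the UMIs of all members of a library were summed, and 4161 genes with a mean of at least 20 CPM and at least 60 UMIs over the libraries were compared. A gene is called higher or lower here when its ratio was at least 1.5-fold and the exact 95% counting interval of the ratio excluded 1. That interval does not cover differences between mice. With GW5074, 243 genes (5.84% of those compared) were higher and 189 (4.54%) lower. In the knockout, 275 (6.61%) were higher and 437 (10.5%) lower. The median log2 ratio of all genes was 0.03 and -0.07. The balance of calls moved with the scaling: 209 were higher and 209 lower with GW5074 under median-of-ratios size factors, and 186 and 228 with totals that leave out mitochondrial and ribosomal genes. In the knockout size factors gave 354 higher and 333 lower.

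Several of the genes lowest with GW5074 were leading genes of sub-cluster 6. Prnp read 148, 15.8 and 13.5 CPM and Ramp3 142, 23.6 and 4.49 CPM. WT_DMSO was high and the other libraries low in both genes. The WT_DMSO level of Prnp was 9.40 times that of WT_GW5074 and 11.0 times that of KO_DMSO. Without sub-cluster 6 its log2 ratio shrank from -3.23 to -1.50 with GW5074 and from -3.46 to -1.73 in the knockout, still lower in both. Sub-cluster 8, with 9, 7 and 6 cells, stayed in the ratios without sub-cluster 6. It shared some of the same genes, with 108 CPM of Prnp, 140 CPM of Ramp3 and 1167 CPM of Mt1. Ramp3 went from -2.59 to -0.82 with GW5074, which was no longer called, and from -4.98 to -3.06 in the knockout. Vdr, the vitamin D receptor, read 151, 70.9 and 49.4 CPM, and its log2 ratio for GW5074 went from -1.09 to 0.20 without sub-cluster 6. Pdcd4, a translation inhibitor, read 201, 49.9 and 60.6 CPM, and its ratios of -2.01 and -1.73 went to -0.71 and -0.44, neither called.

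Of the 14 compared genes known to be induced by glucocorticoids, 7 were lower and 1 higher with GW5074 (median log2 ratio -0.52), and 4 were lower and 1 higher in the knockout (median -0.54). Among all genes compared, 4.54% were lower and 5.84% higher with GW5074, and 10.5% lower and 6.61% higher in the knockout. Mt1 (chr8:94179082-94180327), which binds zinc and copper and is induced by metals as well as glucocorticoids, read 848, 163 and 294 CPM, high in WT_DMSO and 5.21-fold lower with GW5074 (log2 ratio -2.38). Its paralogue Mt2 read 78.6, 0 and 2.24 CPM. Fkbp5 read 186, 34.1 and 67.3 CPM and was lower in both contrasts (-2.44 and -1.46). Tsc22d3, the gene of the glucocorticoid-induced leucine zipper, read 178, 97.2 and 119 CPM. Dusp1, a phosphatase that switches off MAP kinases, read 139, 73.5 and 94.3 CPM. Both were lower with GW5074, at -0.88 and -0.92. Without sub-cluster 6, 3 of the 14 genes were lower and 2 higher with GW5074, with a median of 0.05, and 1 was lower and 2 higher in the knockout. The shares over all genes were then 2.67% lower and 4.37% higher with GW5074, and 7.5% lower and 5.09% higher in the knockout. Mt1 and Fkbp5 stayed lower with GW5074 at -1.35 and -1.50 but were not called in the knockout, at -0.52 and -0.53, while Tsc22d3 and Dusp1 read 0.0068 and 0.14.

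The Mt1 promoter is shown because this gene was among the largest differences of the cells and its start carries short metal response cores. The window runs from 250 bases before to 50 after the start in RefSeq, at chr8:94178839-94179138 (GRCm38.p6, plus strand). Capitals mark TGCNCNC, the core to which the zinc sensor MTF1 binds, searched on both strands.

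Mt1: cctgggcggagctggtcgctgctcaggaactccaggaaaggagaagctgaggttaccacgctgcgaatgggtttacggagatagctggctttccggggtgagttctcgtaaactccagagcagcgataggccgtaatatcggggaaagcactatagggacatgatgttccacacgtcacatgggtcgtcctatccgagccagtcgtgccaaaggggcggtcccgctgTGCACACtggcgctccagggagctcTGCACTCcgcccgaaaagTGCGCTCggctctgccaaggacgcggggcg

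Mt1 held 3 matches. Of 32851 promoters of this length, 51.0% held at least 1 and 7.10% at least 3. A match is a run of letters and not a measured site.

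Ifitm1 and Klhl6 differed across the sub-clusters too. Ifitm1, an interferon-inducible membrane protein that is listed among type 2 DC markers, read 1366, 299 and 608.4 CPM, and type 1 and migratory DC held at most 77.4 CPM. It was 4.56-fold lower with GW5074 and stayed lower without sub-cluster 6 (-2.19 and -1.36), while the knockout ratio went from -1.17 to -0.25. In sub-cluster 5 alone it read 681, 97.4 and 1168 CPM, so only WT_GW5074 was low there. Klhl6 (chr16:19946496-19983037), an adaptor of a ubiquitin ligase known from B cells, read 151, 26.3 and 51.6 CPM. WT_DMSO read 5.75 times the level of WT_GW5074 and 2.93 times that of KO_DMSO, and without sub-cluster 6 its log2 ratios went from -2.52 and -1.55 to -2.12 and -1.15, both still lower. Its level was highest in WT_DMSO in sub-clusters 1, 3 and 5 (96.1, 287 and 72.5 CPM against 16.1 to 60.7 CPM), each of few cells. In migratory DC its log2 ratios were -3.53 and -3.42, and in type 1 DC -0.19 and -0.05.

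Of 4 compared neutrophil markers 3 were lower with GW5074 and 1, Wfdc21, higher, and all 4 were lower in the knockout. The shares over all genes were 4.54% lower and 5.84% higher with GW5074, and 10.5% lower in the knockout. S100a8, a subunit of the antimicrobial protein calprotectin, read 780, 99.8 and 159 CPM, below T cells at 1920, 426 and 186 CPM. S100a9, its partner, read 500, 28.9 and 94.3 CPM, with T cells at 1125, 187 and 69.6 CPM. In both genes WT_DMSO stood highest in type 2 DC and in T cells, and it was also the library with 25.8% neutrophils. Their part in the result was not tested. Without sub-cluster 6 the knockout ratios of S100a8 and S100a9 went from -2.29 and -2.41 to -0.11 and -0.52, neither called. Of the 4 markers 2 were then lower with GW5074 and 1 in the knockout, beside 2.67% and 7.5% of all genes. Retnlg, a gene of mature neutrophils, read 10.6, 0 and 0 CPM in type 2 DC. Il1r2 read 622, 202 and 184 CPM against 152, 41.5 and 17.4 CPM in T cells, so it lay above them in each library. Its ratios of -1.62 and -1.76 went to -0.52 and -0.64 without sub-cluster 6, the second of them still lower.

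**Figure D3:**
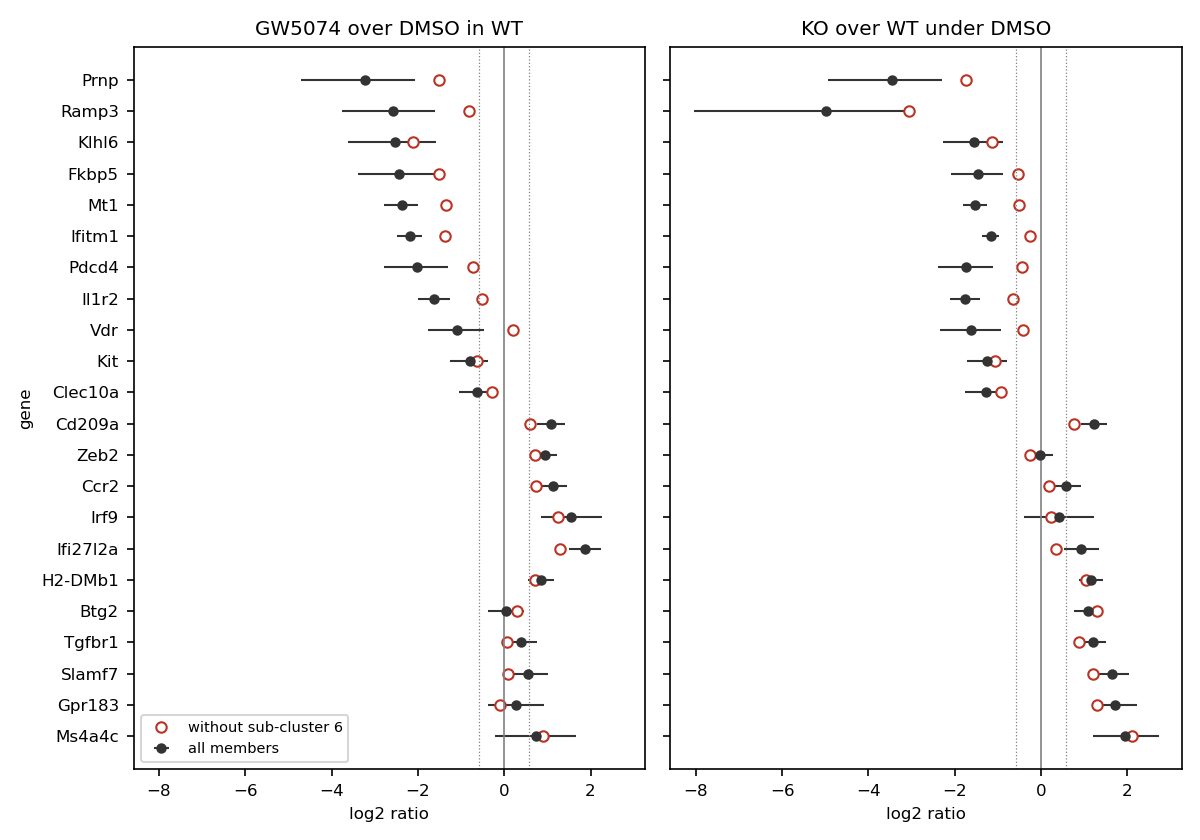
Log2 ratios of 22 genes with their 95% counting intervals in all members (filled) and without the 83 cells of sub-cluster 6 (open), for GW5074 (left) and the knockout (right). Dotted lines mark 1.5-fold. Prnp, Ramp3 and Il1r2 moved toward 0 without these cells, Klhl6 stayed past the lines in both panels, and Slamf7 in the knockout.

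Among genes higher with GW5074, several of macrophages were at the level of T cells of the same library. Lyz2, which the gates of both kinds of cell held under 0.5%, read 577, 1589 and 1192 CPM in type 2 DC and 680, 1526 and 923 CPM in T cells. Ctsd, a lysosomal protease, read 242, 633 and 229 CPM, with 469, 893 and 377 CPM in T cells. Spp1, the gene of osteopontin, read 104, 412 and 137 CPM, with 584, 747 and 221 CPM in T cells. Apoe, a lipid carrier, read 137, 334 and 191 CPM, with 196, 498 and 197 CPM in T cells. Each stood highest in WT_GW5074 in both kinds of cell, and Ctsd, Spp1 and Apoe could not be told apart from background at these levels. For Lyz2 the comparison cannot decide, because both kinds of cell were chosen under the same limit. Of 8 compared genes of retinoic acid and lipid handling 5 were higher with GW5074 (median 0.97), and 4 of these, Abcg1, Fabp5, Apoe and Lpl, were near the T cells. Abcg1, a cholesterol exporter, read 78.6, 168 and 78.6 CPM against 77.7, 176 and 46.4 CPM in T cells. Of 16 compared TGF-beta and matrix genes 7 were higher (median 0.43), among them Spp1, and 5 were without sub-cluster 6. Without sub-clusters 2 and 4 there were 4. Beside both lists, 5.84% of all genes were higher with GW5074, 4.37% without sub-cluster 6 and 6.27% without sub-clusters 2 and 4.

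Some members of these lists were above the T cells. Tgfbi, a matrix protein induced by TGF-beta, read 574, 956 and 458 CPM against 29.0 to 149 CPM in T cells, and was higher with GW5074 at 0.74. Mmp12, a macrophage elastase, read 99.7, 228 and 191 CPM against at most 18.6 CPM in T cells. Fn1, the fibronectin gene, read 104, 260 and 85.3 CPM against 131, 135 and 69.6 CPM in T cells, so it stood above them clearly with GW5074 alone (ratio 1.32). Both Fn1 and Mmp12 were leading genes of sub-cluster 4, at 593 and 674 CPM against 83.6 and 97.9 CPM in the other members. That sub-cluster made up 4.83%, 14.6% and 13.5% of members. Of the 16 compared TGF-beta and matrix genes, 7 were higher with GW5074 over all members and 4 without sub-clusters 2 and 4. Beside them, 5.84% and 6.27% of all genes were. The part of sub-cluster 4 alone in the ratios of Fn1 and Mmp12 was not tested. The knockout ratios of Tgfbi and Fn1 were -0.33 and -0.29, neither called.

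The chemokine receptor gene Ccr2 was higher with GW5074. Of 13 compared genes of chemokine receptors and migration 4 were higher and 0 lower (median 0.22, and -0.09 without sub-cluster 6), and in the knockout 1 was higher. Beside them, 5.84% of all genes were higher and 4.54% lower with GW5074, and 6.61% were higher in the knockout. Ccr2, the receptor that brings monocytes and their kin out of the marrow, read 218, 478 and 323 CPM against 214, 208 and 122 CPM in T cells, with a ratio of 1.14, and 0.75 without sub-cluster 6. In type 1 DC the ratio of Ccr2 was -0.03. Itgax, the gene of CD11c by which cells were sorted, read 310, 483 and 272 CPM (0.64).

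Of 27 compared transcription factors of dendritic cells, 4 were higher with GW5074, Zeb2, Bach2 and Rbpj among them, and none lower, and without sub-cluster 6 there were 6 higher and 1 lower. The shares over all genes were 5.84% higher and 4.54% lower, and without sub-cluster 6 they were 4.37% and 2.67%. Zeb2, a factor needed by monocytes and plasmacytoid cells, read 317, 615 and 310 CPM, high in WT_GW5074 only, with a ratio of 0.95 (0.71 without sub-cluster 6, and 0.70 without sub-clusters 2 and 4). Rbpj, the nuclear partner of Notch receptors on which splenic type 2 DC depend, read 202, 397 and 321 CPM, with ratios of 0.97 and 0.67, the second at 0.32 and not called without sub-cluster 6. Bach2, a repressor best known in lymphocytes, read 163, 265 and 269 CPM (0.70 and 0.72). Irf4 was not called with GW5074 (0.45) and was lower in the knockout (-0.91), a call that held in 6 of 15 alternatives.

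Of 12 compared interferon-induced genes, 3 were higher with GW5074 (median 0.45) and 5 in the knockout (median 0.46), and none was lower in either. Of all genes 5.84% and 6.61% were higher. Ifi27l2a read 137, 502 and 263 CPM, high in WT_GW5074, and its ratios were 1.87 and 0.93. T cells read 736, 841 and 870 CPM of it, more than type 2 DC in every library. Without sub-cluster 6 its ratios were 1.29 and 0.34, only the first called. Irf9, a subunit of the interferon-stimulated factor ISGF3, read 43.8, 129 and 58.4 CPM, with ratios of 1.55 and 0.41, the first called in all 15 alternatives. Slfn5, of the Schlafen family, read 74.0, 126 and 177 CPM (0.77 and 1.26). Trim30a read 142, 197 and 249 CPM (0.47 and 0.81) and Ly6e 435, 509 and 653 CPM (0.23 and 0.59). Without sub-cluster 6, 3 of the 12 were higher with GW5074 and 2 in the knockout, with medians of 0.18 and 0.28, beside 4.37% and 5.09% of all genes. Slfn5 with GW5074 (0.58) and Ly6e in the knockout (0.41) were not called there. Outside the list, Ifi205, of the same interferon-inducible gene family as Ifi209, read 19.6, 44.6 and 101 CPM, lowest in WT_DMSO and highest in KO_DMSO. Its knockout ratio of 2.36 (interval 1.45 to 3.38) held in all 15 alternatives. Ifi205 was a leading gene of sub-cluster 2, the cells with type 1 DC genes, at 300 CPM there against 13.9 CPM in the other members. That sub-cluster made up 6.76%, 9.09% and 14.7% of members, and its part in the ratio was not tested further.

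The promoters of Slfn5 and Ifi205 are shown because both genes were higher in the knockout and both windows carry the interferon-stimulated response element that ISGF3 and IRF factors bind, searched as GAAA, 2 bases of any kind and GAAA. Capitals mark the matches, on both strands. The RefSeq windows lie at chr11:82951852-82952151 (plus strand) and chr1:174031706-174032005 (minus strand) of GRCm38.p6.

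Slfn5: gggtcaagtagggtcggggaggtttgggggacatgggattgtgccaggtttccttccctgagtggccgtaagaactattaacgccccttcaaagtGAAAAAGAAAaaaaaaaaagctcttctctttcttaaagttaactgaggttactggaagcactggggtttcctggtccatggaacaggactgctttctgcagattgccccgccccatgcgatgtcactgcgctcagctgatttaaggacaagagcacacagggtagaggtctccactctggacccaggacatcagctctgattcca
Ifi205: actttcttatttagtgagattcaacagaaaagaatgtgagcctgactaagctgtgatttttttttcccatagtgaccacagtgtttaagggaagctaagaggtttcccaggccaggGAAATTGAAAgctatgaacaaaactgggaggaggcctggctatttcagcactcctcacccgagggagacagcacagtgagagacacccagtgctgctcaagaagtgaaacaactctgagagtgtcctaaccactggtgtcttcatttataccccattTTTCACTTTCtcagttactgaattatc

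Slfn5 held 1 match and Ifi205 held 2, the second of them on the other strand. Of all 32851 promoters 3.44% held the element, and of the 26 interferon-induced genes of the list with a promoter entry 13 did.

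Clec7a (chr6:129461591-129472779), the targeted gene, was low in the knockout library, as its label says. It read 195, 313 and 8.98 CPM, from 129, 119 and 4 UMIs, a log2 ratio of -4.44 (interval -6.34 to -3.05) that was called lower in all 15 alternatives. With GW5074 it was 1.60-fold higher (0.68, interval 0.31 to 1.05), a call that held in 9 of 15. Of 18 compared genes of Dectin-1 signalling, 4 were lower in the knockout and 0 higher (median -0.18), beside 10.5% and 6.61% of all genes. Clec7a, the targeted gene itself, was 1 of the 4. Without sub-cluster 6 there were 3 lower, and without sub-clusters 2 and 4 there were 4, beside 7.5% and 9.04% of all genes. Syk, the kinase that binds the receptor's tail, read 343, 286 and 193 CPM, lowest in KO_DMSO, with a ratio of -0.83 (interval -1.20 to -0.46) called in all 15 alternatives. Prkcd, the gene of PKCδ, read 450, 504 and 276 CPM (-0.71). Malt1, the protease of the CARD9 complex, read 441, 297 and 265 CPM (-0.74, and -0.33 without sub-cluster 6). The signalling adaptors Fcer1g (911, 924 and 1167 CPM) and Tyrobp (1706, 1408 and 1569 CPM) were not called in either contrast.

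**Figure D4:**
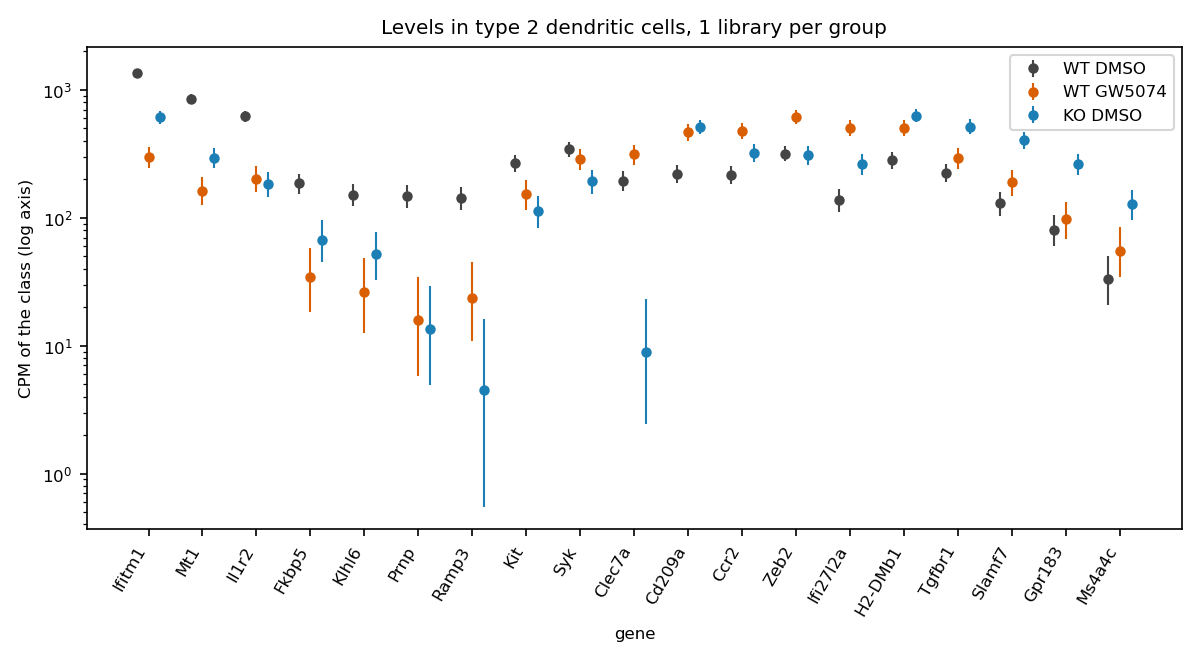
CPM of 19 genes in type 2 DC on a log axis, with exact 95% Poisson intervals of 1 library per group. WT_DMSO stands highest from Ifitm1 to Ramp3, KO_DMSO is at 8.98 CPM for Clec7a, and KO_DMSO stands highest from H2-DMb1 to Ms4a4c.

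Of 16 genes of antigen presentation on MHC class II, 14 had a knockout ratio above 0, beside 1800 of all 4161 genes, and their median was 0.43 beside -0.07. Only 2 were called higher and 1 lower, where 6.61% and 10.5% of all genes were. Cd74, the invariant chain that chaperones class II molecules, read 12270, 13524 and 20759 CPM, high in KO_DMSO (0.76, interval 0.72 to 0.80). H2-DMb1 (chr17:34153072-34160230), a subunit of the peptide exchanger H2-DM, read 281, 504 and 629 CPM, low in WT_DMSO, with ratios of 0.84 and 1.16. The class II chains H2-Aa (7110, 6739 and 9653 CPM), H2-Ab1 (7208, 7702 and 9721 CPM) and H2-Eb1 (6389, 6255 and 8618 CPM) had knockout ratios of 0.43 or 0.44, short of 1.5-fold. Ctsl, a protease that trims the invariant chain, was the one called lower (78.6, 44.6 and 40.4 CPM, ratio -0.96), and at -0.73 it was not called without sub-cluster 6. Without sub-cluster 6 Cd74 and H2-DMb1 stayed higher at 0.71 and 1.04, and the median was 0.25. In each of sub-clusters 1, 3, 5 and 7 Cd74 was highest in KO_DMSO, at 18937 to 20820 CPM against 12337 to 14307 CPM in the other libraries.

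On the class I side 2 of 12 genes were higher and 1 lower in the knockout (median 0.18), beside 6.61% and 10.5% of all genes. Without sub-cluster 6 there was 1 in each direction, with a median of -0.03, beside 5.09% of all genes higher and 7.5% lower. B2m, the light chain of class I molecules, read 1038, 1253 and 1812 CPM (0.80). T cells read 2240, 1796 and 2855 CPM of it. H2-T23, which encodes Qa-1, a ligand of inhibitory receptors on NK cells, read 224, 291 and 128 CPM, lowest in KO_DMSO (-0.81). T cells of the same libraries read 267, 228 and 87.0 CPM of it. Its ratio was called in all 15 alternatives, and H2-K1 and H2-D1 were flat at -0.04 and 0.25.

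Of 12 compared costimulatory and coinhibitory genes, 2 were higher in the knockout and 3 lower, beside 6.61% and 10.5% of all genes. Slamf7, a self-ligand receptor of the SLAM family, read 130, 189 and 404 CPM, 3.11-fold higher (1.64, interval 1.26 to 2.02), and 1.202 without sub-cluster 6. In sub-clusters 1 and 3 it read 219, 141 and 479 CPM and 167, 145 and 405 CPM. Cd48, a ligand of CD244, read 116, 118 and 195 CPM (0.75, and 0.50 without sub-cluster 6). Cd274, the gene of PD-L1, read 110, 60.4 and 56.1 CPM and was lower in both contrasts, at -0.87 and -0.97. The GW5074 call held in 8 of 15 alternatives and was lost without sub-cluster 6 (-0.78), and neither call held without sub-clusters 2 and 4 (-0.64 and -0.49). Cd86 (450, 323 and 494 CPM) and Cd80 (128, 155 and 141 CPM) were not called.

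Gpr183, the oxysterol receptor that positions dendritic cells in lymphoid tissue, read 80.1, 97.2 and 263 CPM, 3.28-fold higher in the knockout (1.71, interval 1.23 to 2.21) and 1.29 without sub-cluster 6. T cells read 87.0, 51.9 and 116 CPM. Tgfbr1, a receptor of TGF-beta, read 225, 294 and 516 CPM (1.198). Btg2, an antiproliferative gene among the immediate early ones, read 208, 215 and 440 CPM (1.08). Tnip3, an inhibitor of NF-kB signalling, read 83.1, 110 and 204 CPM (1.30). It was the 1 gene called of 15 in the NF-kB feedback list, beside 6.61% of all genes called higher and 10.5% lower. All 4 genes were called in the knockout in all 15 alternatives and were not called with GW5074. Ms4a4c, of the membrane-spanning 4A family, read 33.2, 55.1 and 128 CPM (1.94), and was highest in sub-cluster 3, where it read 71.7, 145 and 648 CPM.

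Of 24 compared receptors of growth factors and cytokines, 6 were lower in the knockout and 2 higher (median -0.34), beside 10.5% and 6.61% of all genes. Without sub-cluster 6 there were 4 lower and 2 higher (median -0.28), beside 7.5% and 5.09% of all genes. Kit, the receptor of stem cell factor, read 266, 152 and 112 CPM and was lower in both contrasts, at -0.80 and -1.24. Il4ra, a receptor chain of interleukins 4 and 13, read 128, 147 and 67.3 CPM (-0.93, and -0.63, not called, without sub-cluster 6), and Stat6, its transcription factor, 99.7, 86.7 and 53.9 CPM (-0.89). Il13ra1, the other chain, went the other way at 99.7, 137 and 168 CPM (0.76). Il17ra read 116, 97.2 and 60.6 CPM (-0.94). Csf2rb, the shared chain of the receptors of GM-CSF and interleukin 3, read 624, 575 and 422 CPM (-0.56), short of 1.5-fold. Ccl17, a major chemokine of these cells, read 2443, 1628 and 3498 CPM, lowest with GW5074 (-0.59) and highest in the knockout (0.52), of which the first was called in 8 of 15 alternatives and not without sub-cluster 6 (-0.55).

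Of 8 compared heat shock genes, 5 were higher in the knockout and 1, Cirbp, known to be induced by cold, was lower (median 0.67). The shares over all genes were 6.61% higher and 10.5% lower. Hsp90ab1, a cytosolic chaperone, read 990, 1116 and 1655 CPM (0.74) and Hspa8, the constitutive HSC70, 796, 909 and 1311 CPM (0.72). T cells read 1066, 913 and 1747 CPM of Hsp90ab1. Without sub-cluster 6 the ratios of Hsp90ab1 and Hspa8 were 0.47 and 0.46, neither called. Of the 8 genes 1 was then higher and 1 lower, beside 5.09% and 7.5% of all genes. Tuba1b, a tubulin of the cell cycle list, read 363, 299 and 175 CPM and was lower in the knockout (-1.05), and -1.41 without sub-cluster 6. It was the 1 of 9 compared cell cycle genes called in the knockout (median -0.43), beside 10.5% of all genes called lower. Without sub-cluster 6, 5 were called lower in the knockout and 6 with GW5074, beside 7.5% and 2.67% of all genes. Sub-cluster 8, which carried genes of cell division, was 9, 7 and 6 of the 132, 193 and 153 cells then left. Its part in these calls was not tested.

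Some genes called higher in the knockout lay mostly in sub-clusters 2 and 4. C1qa, C1qb and C1qc, the complement genes of macrophages, had knockout ratios of 1.80, 2.14 and 2.04, and without those sub-clusters 0.18, 0.62 and -0.21, none called. Cadm1 and Irf8, of type 1 DC, had 2.06 and 0.71, and without them 0.24 and -1.16. Airn, an RNA antisense to Igf2r whose reads may not be told from those of Igf2r where counting ignores strand, and Rab7b had 3.13 and 2.83, and neither was called without them. Syk (-0.83), Slamf7 (1.61), Gpr183 (1.88), Cd74 (0.71) and H2-T23 (-0.61) stayed called without sub-clusters 2 and 4. Prkcd (-0.44), Lta4h (-0.50), Ltc4s (-0.49), Rbpj (0.53), Ly6e (0.44) and Il1b (-0.43) in the knockout, and Kit (-0.57) with GW5074, were not called without them.

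The same contrasts were made in the other dendritic gates. Knockout ratios of Cd74 were 0.56 in type 1 and 0.92 in migratory DC, and those of Slamf7 0.99 and 0.91. Gpr183 had 1.32 and 0.86, Tgfbr1 0.81 and 0.74, Btg2 0.81 and 0.59 and Syk -0.49 and -0.58. H2-T23 was lower still, at -1.56 and -1.41, from 401, 349 and 136 CPM in type 1 DC. Tnip3 differed in sign, at -1.43 in type 1 DC, where it read 8.75, 8.58 and 3.26 CPM, and 0.51 in migratory DC. With GW5074, Zeb2 had 0.30 and 0.56 in type 1 and migratory DC, and Ifitm1 had -2.42 and -2.74. These gates are of the same libraries, and a difference between gates was not tested.

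**Figure D5:**
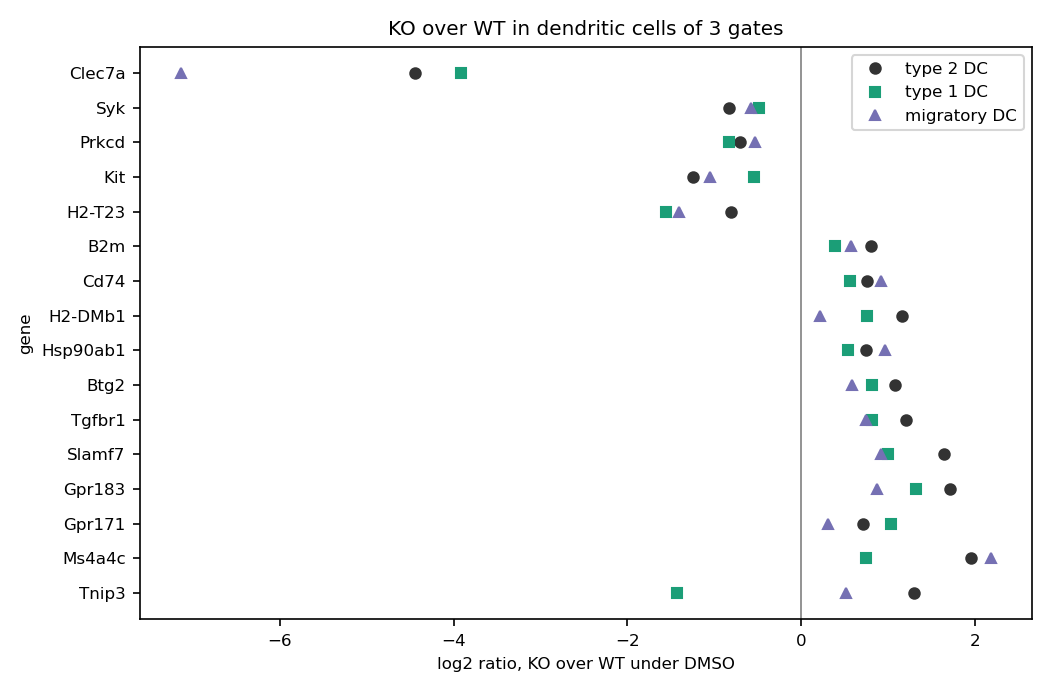
Log2 ratios, KO_DMSO over WT_DMSO, of 16 genes in type 2, type 1 and migratory DC, 1 library per group. All 3 gates lie on the same side of 0 for each gene except Tnip3, which was -1.43 in type 1 DC, and Clec7a is lowest in each gate.

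Other lists held few calls. Shares over all genes were 5.84% higher and 4.54% lower with GW5074, and 6.61% and 10.5% in the knockout. Of 15 compared NF-kB feedback genes none was called with GW5074, and of 5 compared targets of the MEK-ERK pathway 1 was (Ccnd1, higher at 124, 249 and 263 CPM). Of 17 immediate early genes 2 were higher and 2 lower with GW5074, with Fos lower at 195, 108 and 233 CPM and Jun higher at 202, 307 and 249 CPM (0.60, and 0.55, not called, without sub-cluster 6). Of 15 glycolysis genes 1 was higher and 1 lower. Of 7 eicosanoid genes Lta4h, a leukotriene hydrolase (137, 81.4 and 83.1 CPM), and Ltc4s, the leukotriene C4 synthase (118, 55.1 and 67.3 CPM), were lower in both contrasts, and Tbxas1, the thromboxane synthase, was higher with GW5074. Without sub-cluster 6 Ltc4s was not called in either contrast, at -0.77 and -0.49, and neither was Tbxas1 with GW5074 (0.48). Of the 21 cytokine genes listed only 3 were expressed highly enough to compare, and Il1b read 573, 541 and 375 CPM, lower in the knockout (-0.61) and at -0.36 without sub-cluster 6. Il10, Il6, Il12a and Il1a were at 0 in all 3 libraries, where 3 counts would be 4.53, 7.88 and 6.73 CPM.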

How the data were processed

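Droplet 3′ single-cell libraries of 3 groups were compared. The deposited counts are UMIs per gene and barcode. Cell Ranger 2.1.1 and mm10 are named in the submitters' processing notes. The labels disagree on the platform: the protocols name a SeekOne chip and the sample descriptions 10x Genomics. Barcodes had been filtered before deposit. How intronic and multiply mapped reads were counted is not given in the sources used here.

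Cells were kept and members chosen by the limits given in the report, 42888 cells and 561 members. Members' UMIs were summed per library and given as CPM. Log2 ratios have exact conditional binomial 95% intervals and CPM exact Poisson ones, and both cover counting error only. With 1 pooled library per group no test was made and no p is given. No doublet caller was run: the gate removes cells with UMIs of other types, and an alternative leaves out the 5% of members with the most UMIs. Sub-clusters come from scanpy 1.11.5 and leidenalg 0.10.2 with 15 principal components, 15 neighbours and a resolution of 0.8. numpy 2.4.6, scipy 1.17.1 and pandas 2.3.3 were used in Python 3.11.15. The ratio calculation was tested on simulated data.

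Genes are named by a rule: with a mean of at least 50 CPM, the 12 highest and 12 lowest called in each contrast, every called member and the 4 highest-level members of each list, Clec7a, the gate's genes, the 15 farthest above each other dendritic gate, and markers as levels. Others named from the sub-clusters, and genes below that mean such as Mt2 and Cirbp, were chosen after their values were seen. Some genes are not reported here. The members and lists were chosen with earlier results of these data known. Promoter sequences are RefSeq's for GRCm38.p6, and gene positions are those of GENCODE for GRCm38.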

Additional observations from a re-analysis of the deposited data

How the results depend on the processing

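No paired analysis was possible because each group is 1 library and the labels give no replicate number, and no replicate could be left out. The alternatives without sub-cluster 6, without sub-clusters 2 and 4 and without barcodes found in another library were added after seeing the data. Of the 81 genes the naming rule chose that were called with GW5074, 16 kept the call under all 15 alternatives and 65 kept their sign, and of 99 in the knockout 20 and 86 did. The ratio of shares for GW5074 (-0.47) was -0.10 with at most 1 macrophage or neutrophil UMI, 0.19 with a Cd209a UMI required, -0.82 with a UMI of Flt3, Zbtb46, Irf4 or Dpp4 required, 0.14 without sub-cluster 6 and -0.88 without neutrophils in the denominator. For the knockout (-0.20) it was 0.66 with Cd209a required, 0.42 without sub-cluster 6 and -0.60 without neutrophils.

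Counts of calls fell where fewer genes passed the filter. With GW5074, 243 higher and 189 lower genes became 139 and 81 with the gate on cells thinned to 1000 UMIs, 82 and 55 with Cd209a required, 94 and 49 with thinned members, and 409 and 331 with no filter on low values. Lower genes numbered 93 under the macrophage and neutrophil limit and 96 without sub-cluster 6. In the knockout, 275 and 437 became 138 and 173, 93 and 115, 122 and 109, and 414 and 705 under the same 4 settings in that order, 182 and 201 under the macrophage and neutrophil limit, and 268 lower without sub-cluster 6. These counts apply the filter on low values again to the cells left. Over the same 4161 genes, lower genes with GW5074 numbered 151 under the macrophage and neutrophil limit and 111 without sub-cluster 6, and in the knockout 252 were higher and 324 lower under the limit and 312 lower without sub-cluster 6.

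For genes the report names, the called ratios that changed sign are these, and the cause was not tested. With Cd209a required, GW5074 ratios were -0.25 for Airn and Rab7b, -1.67 for C1qa, -0.67 for C1qb, -0.99 for C1qc and -0.053 for Mmp12, and knockout ratios 0.058 for Ifitm1, 0.15 for Mt1, -0.53 for Irf8 and -0.74 for Xcr1. With the thinned gate, GW5074 ratios were -0.15 for Airn, -1.47 for Rab7b and 0.47 for Ctsl, and knockout ratios -0.64 for Ccl5, -0.23 for Irf8 and -0.38 for Xcr1. Without sub-cluster 6, GW5074 ratios were 0.14 for Dusp1, 0.0068 for Tsc22d3 and 0.20 for Vdr. Without sub-clusters 2 and 4, the knockout ratio of C1qc was -0.21 and that of Irf8 -1.16. C1qa in the knockout was -0.74 under the macrophage and neutrophil limit, and Ctsl in the knockout 0.052 with at least 3 lectin UMIs. Depth limits low genes most in WT_GW5074, where 3 UMIs are 7.88 CPM.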
